A study of Mus musculus with 6 samples.

Results

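The forkhead genes encode transcription factors that share a winged-helix DNA-binding domain, and their RNA levels were compared between mouse pulmonary arterial smooth muscle cells (PASMCs) given BMP9 and BMP10 and cells that were not. Members were the protein-coding rows whose symbol in the mm10 GENCODE annotation reads Fox, a letter from a to s and a number, with Foxj1 left out. This gave 32 of the 21785 genes of the deposited table. The annotation holds 11 more symbols of this form, which were not analysed here. The lungs of C57BL/6 mice were filled with iron-agarose through the pulmonary artery, arterial fragments were collected with a magnet, and the cells that grew out of them were used. All samples spent 48 h in medium without supplements. In the stimulated group (n = 3), BMP9 at 1 ng/mL and BMP10 at 5 ng/mL, ligands of the TGF-beta family, were then added together for 6 h, and the control group (n = 3) was the same cells without the ligands. No genotype or age is given in the labels, and they do not say whether the replicates were separate animals or cultures, so each p-value speaks only of the spread among these samples.

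Forkhead factors bind a core sequence close to TGTTTAC, as activators or repressors. Some are set by cell signals, as when the kinase AKT moves FoxO factors out of the nucleus, and others mark the identity or position of a cell lineage. In lung mesenchyme, Foxf1 and Foxf2 act downstream of Hedgehog signals from the epithelium, and Foxc1, Foxc2 and Foxs1 are known from vessel walls and their surrounding cells.

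RefSeq promoter windows (GRCm38.p6, the assembly behind mm10) were matched by symbol for 20 of the 32 members, 25 windows in all, of which the 250 bases before the start site were read. The windows below belong to members that rose (Foxp1, which has several start sites, and Foxp4) and to the member that fell (Foxo3). Of Foxp1, only the windows that hold GGCGCC are printed. A further window of Foxp1 and that of Foxk2, which also rose, lack it and are not printed. Foxs1 and Foxq1, which rose too, had no window. The printed windows are therefore a selection and do not compare the 2 directions. They are written 5′ to 3′ on the strand of the gene, with matches to GGCGCC, a GC-rich motif bound by BMP-activated SMAD proteins, in capitals.
Foxp1, chr6:99520994-99521243, minus strand: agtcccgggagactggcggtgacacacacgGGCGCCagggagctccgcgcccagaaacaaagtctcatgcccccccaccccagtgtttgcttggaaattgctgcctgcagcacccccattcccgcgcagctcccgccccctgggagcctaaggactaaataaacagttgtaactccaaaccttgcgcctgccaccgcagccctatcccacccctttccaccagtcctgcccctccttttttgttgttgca
Foxp1, chr6:99266516-99266765, minus strand: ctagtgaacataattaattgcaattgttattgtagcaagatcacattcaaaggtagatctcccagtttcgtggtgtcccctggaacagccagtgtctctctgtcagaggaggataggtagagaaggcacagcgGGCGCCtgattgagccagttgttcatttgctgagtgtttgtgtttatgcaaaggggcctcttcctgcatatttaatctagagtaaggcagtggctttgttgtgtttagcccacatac
Foxp4, chr17:47924633-47924882, minus strand: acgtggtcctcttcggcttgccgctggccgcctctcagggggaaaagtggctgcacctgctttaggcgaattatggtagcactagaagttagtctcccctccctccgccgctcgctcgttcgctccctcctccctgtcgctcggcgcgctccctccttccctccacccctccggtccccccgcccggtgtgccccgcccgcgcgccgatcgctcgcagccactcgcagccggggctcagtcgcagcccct
Foxo3, chr10:42276696-42276945, minus strand: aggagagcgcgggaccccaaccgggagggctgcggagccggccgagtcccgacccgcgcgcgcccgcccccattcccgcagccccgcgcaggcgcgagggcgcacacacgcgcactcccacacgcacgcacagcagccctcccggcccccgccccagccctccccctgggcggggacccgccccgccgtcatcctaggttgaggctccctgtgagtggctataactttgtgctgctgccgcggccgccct
The motif GGCGCC, which reads the same on both, occurred in 4 of the 25 member windows (Foxp1 as shown, Foxa2 and Foxc1), against 9.59% of all 32841 windows. The SMAD motif CAGACA, read on both strands, occurred in 4 of 25 (Foxd1, Foxi2, Foxn3 and Foxn4), against 17.1%. The forkhead motif TGTTTAC, read on both strands, occurred in 1 of 25, that of Foxa1, against 3.17%. The member windows had a median GC content of 63.2%, against 52.4% for all windows. No match to any of these motifs lay in the windows of Foxp4, Foxo3 or Foxk2 or in a further window of Foxp1, which says only that these letters are not in these bases.

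All levels are normalized read counts, with library totals of 27295973 to 31903795. The spacing of low values gave an estimate of 54.4 M original reads for stimulated replicate 3 and of 23.3 to 28.1 M for each of the other libraries, so low values are most certain in that library. Changes are on the log2(value + 1) scale, stimulated minus control, with SE and limma p-values adjusted over all 21743 genes tested. Smooth muscle markers were present, and the 7 listed summed to 84855 to 183205 in stimulated and 34871 to 54627 in control libraries, with Acta2, Tagln and Cnn1 called higher (1.76, 1.61 and 1.57 on the log2 scale). Most of the sum was Acta2, at 69094, 153164 and 105332 in stimulated and 23470, 37627 and 32172 in control replicates. Des (-0.43) and Myh11 (0.41) overlapped between groups and did not pass. The part of these markers in the results was not tested. Markers of other cells were present too. The summed endothelial markers were at 9658 to 43468 in stimulated and 12063 to 45332 in control libraries. The epithelial ones were at 3248 to 36304 and 7984 to 35276, and the macrophage ones at 138533 to 209000 and 93025 to 160484. None of these markers was at 0 in all libraries. Most of the macrophage sum was Lyz2, at 179899, 123461 and 162472 in stimulated and 138253, 136319 and 81014 in control replicates. Fibroblast markers summed to 232992 to 439761 in stimulated and 276551 to 385216 in control libraries, mostly the collagen genes Col1a1 and Col1a2. Of these 6 markers, 1 was called lower and none higher (limma). Mesothelial markers summed to 181 to 2006 and 532 to 2530, highest in replicate 2 of both groups. The part of all these markers in the forkhead results was not tested. In such mixed cultures, fewer cells of a type and less RNA per cell cannot be told apart. Within each group, replicate 2 had the highest value of each of the 12 endothelial markers.

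Of the 32 forkhead genes, all were tested, 5 rose, 1 fell and 26 did not pass (limma, adjusted p under 0.05). Over all genes tested, 8.61% were called higher, 4.75% lower and 13.4% in either direction, and among genes with a mean of at least 50 normalized reads the share was 20%. Of the members, 23 had such a mean and held all 6 calls (26.1%), so the share called in this fit was near the background. Same-numbered libraries of both groups deviated together from their group means, with correlations of 0.747, 0.741 and a weak 0.218 for numbers 1, 2 and 3. A fit with the replicate number as a block was therefore set beside this one. No label gives this pairing, and the evidence for it comes from the same values that the block fit tests. With that block, 12 members were called higher and 6 lower (56.2% called), against 26.8% of all genes called in either direction (14.9% higher, 12% lower). Of the 23 members with a mean of at least 50, 17 were called with the block, against 39.8% of all genes with such a mean. The median log2 change was 0.25 over the members and -0.03 over all genes. The groups did not overlap for 17 members, 14 of them higher after stimulation, against 33.2% of the whole table without overlap. The difference had the same sign in all 3 same-numbered pairs for 23 members (16 higher and 7 lower), against 55.4% of all genes.

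**Figure D1:**
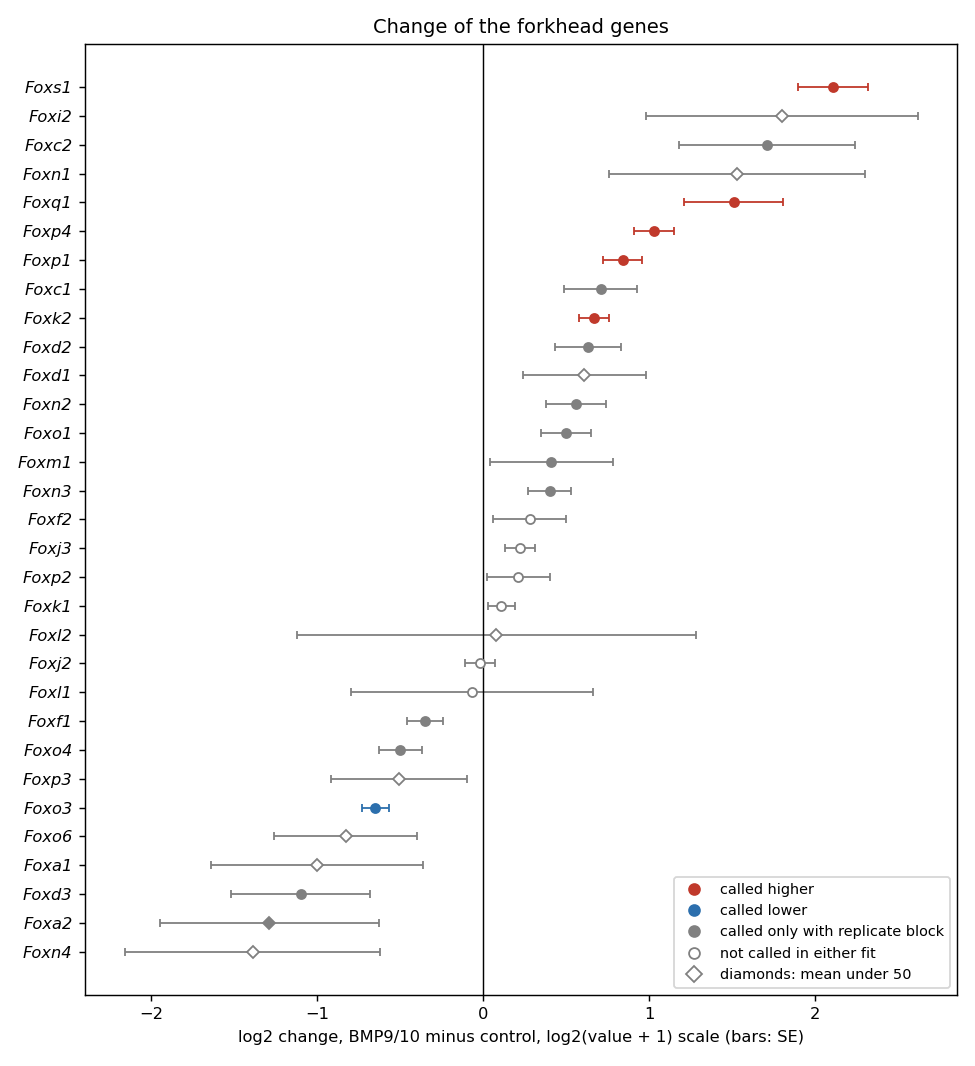
Log2 change (stimulated minus control) of 31 forkhead genes, with SE as bars, from the highest at the top to the lowest; filled grey points are called only with the replicate block and diamonds have a mean under 50. Foxs1 (2.11) leads the 5 genes called higher, Foxo3 (-0.65) is the single gene called lower, and the genes with wide bars are those with low values or with replicate 2 far from the others.

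Levels per length show which forkhead genes the cultures expressed most. In stimulated cells the order, in mean normalized reads per kb of exonic length (isoforms merged), was Foxp4 (671), Foxs1 (609), Foxf2 (574), Foxk2 (552), Foxp1 (341) and Foxf1 (334). In control cells it was Foxo3 (477), Foxf2 (463), Foxf1 (426), Foxk2 (347), Foxp4 (328) and Foxo4 (287). Neighbours in these orders overlap between libraries: in stimulated cells Foxf2 ran from 471 to 779 per kb and Foxk2 from 493 to 592. Foxs1 stood at rank 2 of 32 in stimulated cells and at rank 11 in control cells, and Foxo3 at rank 7, level with Foxk1, in stimulated and rank 1 in control cells. At the low end, 9 members had a mean under 50 normalized reads. These were Foxa1, Foxa2, Foxd1, Foxi2, Foxl2, Foxn1, Foxn4, Foxo6 and Foxp3, and none of them passed limma without the replicate block when all 6 libraries were fitted. With the block Foxa2 passed (adjusted p = 0.0418), and with the block and equal library totals Foxa2 (0.0202) and Foxo6 (0.0398) did. Foxi2 passed without stimulated replicate 1 (2.70, adjusted p = 0.0295) and Foxn1 without control replicate 2 (2.36, adjusted p = 0.0432). Both were near the floor. Foxi2 was at 0, 5 and 6 in stimulated and 0 in all control replicates. Foxn1 was at 5, 7 and 7 in stimulated and 1, 7 and 0 in control replicates. With all 6 libraries, adding 5 or 0.1 in place of 1 gave changes of 0.71 or 3.87 for Foxi2 and 0.67 or 2.79 for Foxn1.

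**Figure D2:**
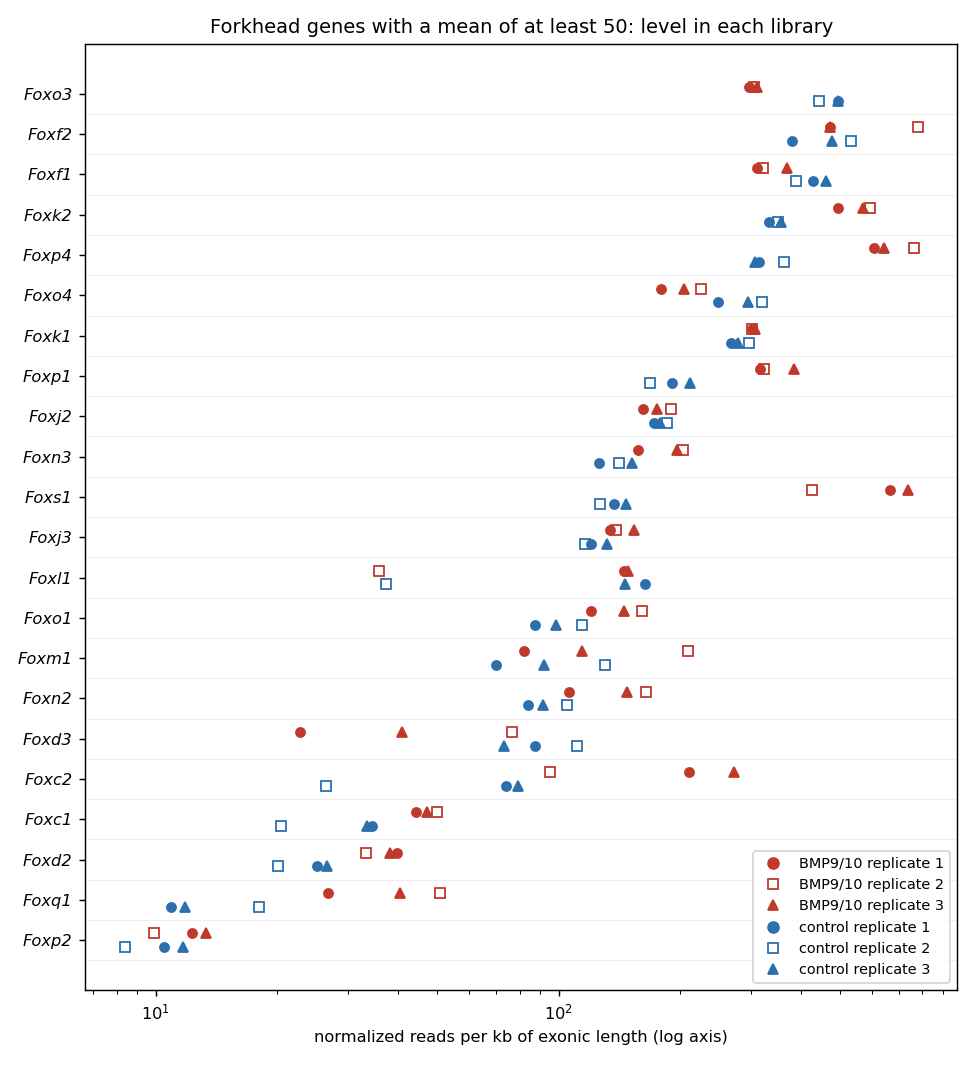
Level of 22 forkhead genes with a mean of at least 50, in normalized reads per kb of exonic length on a log axis, 1 point per library. Genes run down the page by their control level, stimulated libraries lie above control ones within a gene, and open squares mark replicate 2. The stimulated points of Foxs1 (426 to 738) lie apart from the control points (127 to 147), and the open squares of Foxl1 lie below its other points.

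Foxs1, a small intronless gene on chromosome 2 (152931898 to 152933208 in mm10) known from perivascular cells of the embryo, had the largest rise among the forkhead genes. It had 870, 559 and 968 normalized reads in stimulated replicates 1 to 3, against 180, 167 and 193 in control replicates. All stimulated libraries were at more than any control library, and the lowest stimulated one was replicate 2. The mean was 799 ± 214 in stimulated and 180 ± 13 in control cells (SD, n = 3 each), a log2 change of 2.11 ± 0.21 (limma adjusted p = 0.00204). The call held in every alternative run, with log2 changes between 1.94 and 2.35 and adjusted p of at most 0.0167. Of the 3 rows whose start sites lie within 50 kb of it, none passed limma. Mylk2, a myosin light chain kinase of skeletal muscle, was at 95, 63 and 82 in stimulated and 54, 29 and 36 in control replicates (1.02 ± 0.30, limma adjusted p = 0.066, and 0.0117 with the replicate block).

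Foxc2 and Foxc1 are paired regulators of vessel and lymphatic development. Foxc2 was at 575, 259 and 745 in stimulated replicates 1 to 3 and at 202, 72 and 216 in control ones. The groups did not overlap, and within each group replicate 2 had less than 0.5 times the level of either other replicate. Its log2 change of 1.71 ± 0.53 did not pass without the block (limma adjusted p = 0.0786) and passed with the replicate block (adjusted p = 0.000251) or without both libraries numbered 2 (1.64, adjusted p = 0.0204). The differences within pairs 1, 2 and 3 were 1.5, 1.83 and 1.78 on the log2 scale. Foxc1 was at 259, 291 and 275 in stimulated replicates and at 201, 119 and 195 in control ones, again without overlap (0.71 ± 0.22, limma adjusted p = 0.0781, 0.0363 with the replicate block, and 0.0604 with the block and equal library totals). Endothelial markers moved with the replicate number, in the other direction to Foxc2: their sum in replicate 2 was 3.37 times the mean of the other replicates in stimulated and 3.46 times in control cells, and their part in these results was not tested.

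Foxc2 lies in a cluster with Foxf1 and Foxl1 on chromosome 8, where 43554 bases separate the first and last start sites, and the changes within the cluster had both signs. Foxf1, a regulator of lung mesenchyme and of endothelium, was at 751, 778 and 888 in stimulated replicates and at 1032, 940 and 1112 in control ones. Every stimulated library was below every control library, and the log2 change of -0.35 ± 0.11 passed only with the replicate block (limma adjusted p = 0.0805, and 0.0175 with the block) or with equal library totals (-0.52, adjusted p = 0.0192). Fendrr, the long noncoding RNA gene that starts 1276 bases from Foxf1 and runs the other way, was at 38, 68 and 47 in stimulated and 98, 102 and 93 in control replicates and fell by 0.96 (SE 0.25, limma adjusted p = 0.0473). That call was lost without control replicate 1 (0.138), 2 (0.107) or 3 (0.127), without stimulated replicate 1 (0.0972) or 3 (0.159), and with a pseudocount of 5 (0.052). Foxl1, known from mesenchyme under the gut epithelium, was at 393, 97 and 403 in stimulated and 444, 101 and 394 in control replicates. Its groups had nearly the same values, with replicate 2 below 0.5 times the others in both (-0.07 ± 0.73, limma adjusted p = 0.966), and the sign turned to 0.61 without stimulated replicate 2.

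The second cluster, on chromosome 13, holds Foxq1, Foxf2 and Foxc1 with 250499 bases between the outer start sites. Foxq1, known from hair and from epithelial plasticity, was at 130, 246 and 195 in stimulated replicates and at 53, 87 and 57 in control ones. It rose by 1.51 ± 0.30 (190 ± 58.1 in stimulated against 65.7 ± 18.6 in control cells, SD, n = 3 each; limma adjusted p = 0.02), with replicate 2 highest in each group. Leaving out control replicate 1 (1.37, adjusted p = 0.077) or 3 (1.43, adjusted p = 0.0819), or stimulated replicate 2 (1.3, adjusted p = 0.0556) or 3 (1.47, adjusted p = 0.0955), ended the call. Of the exonic bases of Foxq1, 66.07% also lie in exons of A530084C06Rik, which is read from the other strand, so its level is uncertain if counting ignored strand. Foxf2, the partner of Foxf1 in lung mesenchyme and a gene of brain pericytes, was at 1112, 1841 and 1114 in stimulated and 896, 1257 and 1129 in control replicates. These groups overlapped, and the change of 0.28 ± 0.22 did not pass (limma adjusted p = 0.469). The log2 ratio of Foxf2 to Foxf1 within a library was 0.57, 1.24 and 0.33 in stimulated and -0.20, 0.42 and 0.02 in control replicates.

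Foxd2 was another low gene of this mesenchymal group, at 103, 86 and 99 in stimulated and 65, 52 and 69 in control replicates. The groups did not overlap (0.63 ± 0.20, limma adjusted p = 0.0816, 0.0359 with the replicate block, and 0.09 with the block and equal library totals). Foxd2os, a noncoding RNA gene that starts 384 bases away on the other strand, was also without overlap, at 156, 174 and 183 in stimulated and 124, 105 and 138 in control replicates (0.49 ± 0.17, limma adjusted p = 0.103, and 0.0498 with the replicate block). Foxd1, a gene of stromal progenitors of the kidney, was at 12 or 13 in stimulated and at 5 to 10 in control libraries (limma adjusted p = 0.327). Foxl2, an ovarian factor, was at 22, 2 and 15 in stimulated and 38, 1 and 11 in control replicates, again lowest in replicate 2 of both groups.

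The FoxP factors, repressors with roles in lung, heart and immune cells, included some of the clearest rises. Foxp4, on chromosome 17, was at 2982, 3763 and 3164 in stimulated replicates and at 1548, 1790 and 1511 in control ones. The groups lay well apart, at 3300 ± 409 in stimulated and 1620 ± 152 in control cells (SD, n = 3 each), a rise of 1.03 ± 0.12 (limma adjusted p = 0.00309). Foxp1, which acts with Foxp4 in airway epithelium, was at 4347, 4455 and 5282 in stimulated replicates and at 2623, 2326 and 2922 in control ones, a rise of 0.84 ± 0.12 (limma adjusted p = 0.00633). Both calls held in every alternative run, with log2 changes of 0.85 to 1.1 for Foxp4 and of 0.67 to 0.92 for Foxp1. Foxp2, the family member tied to speech in humans, was at 201, 162 and 217 in stimulated and 172, 137 and 192 in control replicates, which overlapped (0.21 ± 0.19, limma adjusted p = 0.514). Foxp3, the factor of regulatory T cells, was at 3 to 5 in stimulated and 5 to 9 in control libraries, where the summed T cell markers were at 60 to 173 and 109 to 170. Most of that sum was Cd4 in every library other than stimulated replicate 2, and Cd3e, Cd3d and Cd3g were at 0 or 1 outside the libraries numbered 2.

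Foxk2 and Foxk1 bind overlapping sites and are known as regulators of autophagy and glycolysis genes. Foxk2 was at 2594, 3115 and 2992 in stimulated replicates and at 1747, 1845 and 1877 in control ones. It rose by 0.67 ± 0.09 (2900 ± 272 in stimulated against 1820 ± 67.7 in control cells, SD, n = 3 each; limma adjusted p = 0.00645), a call that held in every alternative run with adjusted p of at most 0.0451. Foxk1 was at 2293, 2287 and 2326 in stimulated and 2035, 2243 and 2107 in control replicates, groups that came close without overlapping (0.11 ± 0.08, limma adjusted p = 0.373, and -0.06 with equal library totals). The log2 ratio of Foxk2 to Foxk1 does not depend on how libraries are scaled, apart from the added 1. It was 0.18, 0.45 and 0.36 in stimulated and -0.22, -0.28 and -0.17 in control replicates.

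Such within-library ratios were compared for 7 pairs of paralogs chosen after their values were seen, with a 2-sided exact permutation test over the 6 samples, in which 3 against 3 cannot go below p = 0.1. The ratio of Foxk2 to Foxk1 was higher by 0.55 on the log2 scale (exact permutation p = 0.1, 0.175 adjusted over the 7 pairs), with no overlap. Those of Foxp1 and Foxp4 to Foxp2 were higher by 0.63 and 0.81 and that of Foxo3 to Foxo1 lower, by -1.15, each with the same smallest p. The ratios of Foxc2 to Foxc1 (0.99, exact permutation p = 0.3), Foxf2 to Foxf1 (0.63, exact p = 0.2) and Foxn3 to Foxn2 (-0.15, exact p = 0.2) overlapped between groups. Within same-numbered pairs each of these 3 had 1 sign. In pairs 1, 2 and 3 the difference was 1.14, 0.55 and 1.29 for Foxc2 to Foxc1, 0.77, 0.82 and 0.3 for Foxf2 to Foxf1, and -0.03, -0.12 and -0.32 for Foxn3 to Foxn2. This test, which ignores the pairs, cannot pass 0.05 with 3 samples a group.

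The FoxO factors, which carry starvation and stress signals and are held out of the nucleus by AKT, lay on both sides of no change. Foxo3 was at 2248, 2311 and 2352 in stimulated replicates and at 3736, 3363 and 3746 in control ones. It fell by 0.65 (2300 ± 52.4 in stimulated against 3620 ± 218 in control cells, SD, n = 3 each; SE 0.08, limma adjusted p = 0.0037), and the fall held in every alternative run, between -0.82 and -0.62. Foxo4 was at 627, 786 and 713 in stimulated and 865, 1111 and 1027 in control replicates, without overlap (-0.50 ± 0.13, limma adjusted p = 0.0538, and 0.00391 with the replicate block), and it also passed with equal library totals, upper-quartile factors, TMM factors or a filter at a mean of 10 (adjusted p of 0.021 to 0.0475). Foxo1, in contrast, was at 1040, 1396 and 1253 in stimulated and 756, 991 and 852 in control replicates, also without overlap (0.50 ± 0.15, limma adjusted p = 0.068, 0.00336 with the replicate block and 0.0493 without stimulated replicate 1). Its differences within pairs 1, 2 and 3 were 0.46, 0.49 and 0.56, and those of Foxo4 were -0.46, -0.50 and -0.53. Foxo6 was low, at 12, 25 and 18 in stimulated and 24, 55 and 25 in control replicates.

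Kinases and other regulators of FoxO proteins were measured as a list of 14 genes, of which 7 rose and 1 fell (limma, against 8.61% and 4.75% of all genes). Among genes with a mean of at least 50, which all of the list had, 20% were called in either direction. The median log2 change of the list was 0.38. Akt2, an isoform of the kinase that phosphorylates FoxO, fell by 0.30 (SE 0.08, limma adjusted p = 0.0488), a call lost whenever any 1 library was left out (adjusted p of 0.0615 to 0.171), and Akt1 had a change of 0.02 ± 0.08 (limma adjusted p = 0.923). The related kinase gene Sgk3, at 784, 1104 and 940 in stimulated and 433, 619 and 468 in control replicates, rose by 0.90 ± 0.18 (limma adjusted p = 0.0208). The deubiquitinase gene Usp7 rose by 0.47 ± 0.07 and Ywhaz, which encodes a 14-3-3 protein that binds phosphorylated FoxO, by 0.40 ± 0.07. Without stimulated replicate 3 none of the 7 rises passed; there were 2 without control replicate 1, and 3 each without control replicate 3 and without stimulated replicate 2. With equal library totals there were 3 rises. Usp7 was lost without stimulated replicate 3 (adjusted p = 0.0501). Ywhaz was lost without control replicate 1 or stimulated replicate 3 (0.0631 and 0.0705) and with equal library totals (0.0687), and Sgk3 without 4 of the 6 libraries (0.0559 to 0.0927).

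Of 24 known FoxO target genes, 6 fell, 2 rose and 16 did not pass (limma, against 4.75% and 8.61% of all genes). With the replicate block 13 were called lower and 4 higher, against 12% and 14.9% of all genes. Among genes with a mean of at least 50, 20% were called in either direction, and 39.8% with the block. The list was chosen with earlier results of these data known. The median log2 change of the list was -0.40, and -0.03 over all genes. Txnip, the thioredoxin-binding protein gene, was at 3396, 3315 and 3507 in stimulated and 7689, 6786 and 8865 in control replicates and fell by 1.18 (SE 0.11, limma adjusted p = 0.00135). The PI3K inhibitor gene Pik3ip1 fell by 0.88, the stress gene Sesn1 by 0.88 and the DNA damage gene Gadd45a by 0.82. Each of these 3 calls was lost when control replicate 1 or 3 or stimulated replicate 3 was left out (adjusted p of 0.0501 to 0.0711), and 1 fall of the list, that of Txnip, was then called. Bcl6, a transcriptional repressor, and Irs2, the insulin receptor substrate, rose by 0.45 ± 0.08 and 0.56 ± 0.14. Bcl6 was lost with equal library totals (adjusted p = 0.0687) and without control replicate 1 (0.0762) or 3 (0.0702) or stimulated replicate 3 (0.0844). Irs2 was lost with equal library totals (0.0875), without any 1 library other than stimulated replicate 1 (0.0659 to 0.139) and without both libraries numbered 2 (0.0951).

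**Figure D3:**
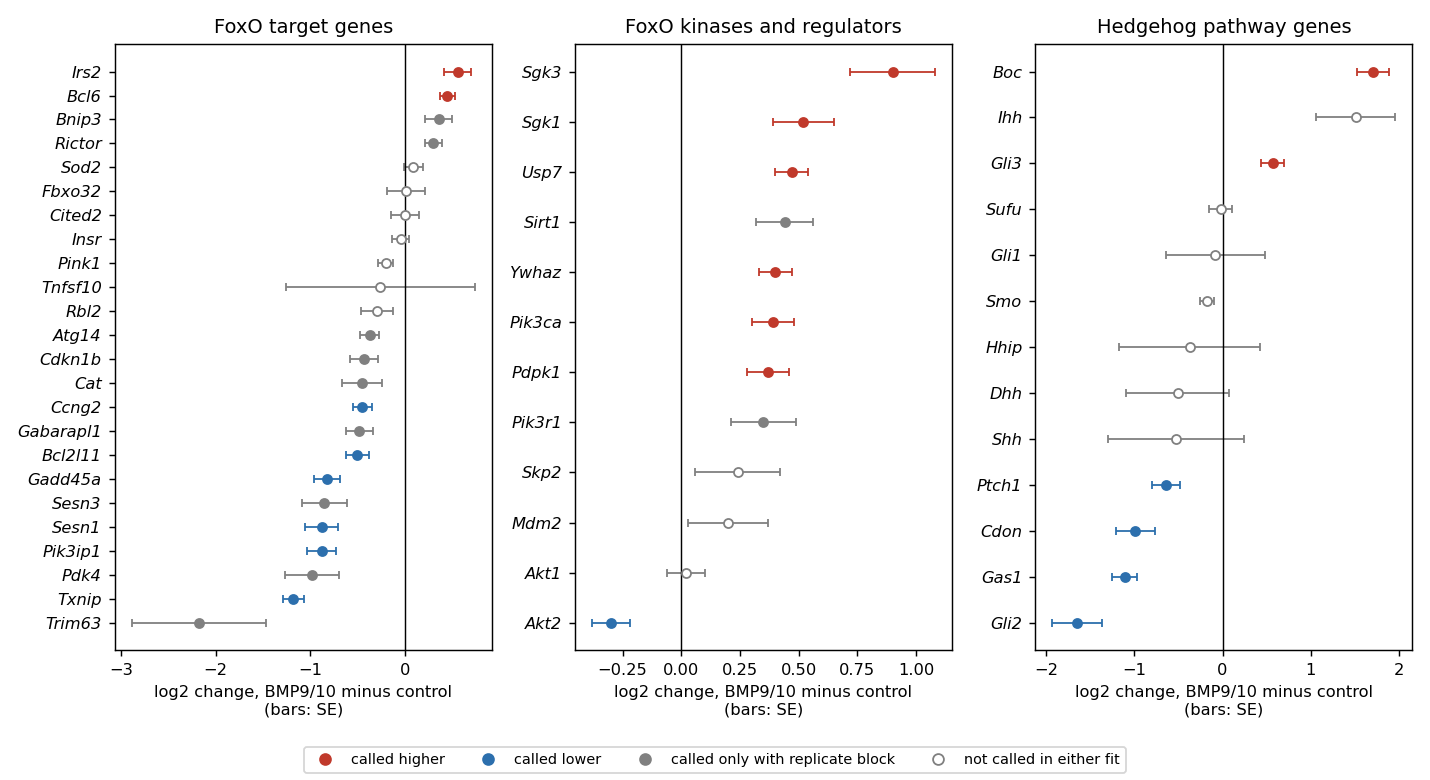
Log2 change (stimulated minus control, SE as bars) of the FoxO target genes, the FoxO kinases and regulators and the Hedgehog pathway genes; scales differ between panels. Txnip (-1.18) is the lowest called FoxO target, Sgk3 (0.90) the highest regulator drawn, and in the Hedgehog panel Boc (1.71) is highest and Gli2 (-1.65) the lowest drawn.

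Foxm1, which drives genes of mitosis, was highest in replicate 2 of both groups. It was at 471, 1210 and 657 in stimulated and 402, 750 and 530 in control replicates. The groups overlapped (0.41 ± 0.37, limma adjusted p = 0.523, and 0.036 with the replicate block). The call with the block was lost with the block and equal library totals (0.24, adjusted p = 0.122), and without stimulated replicate 2 the change was 0.04. Its 20 listed targets were each highest in replicate 2 of both groups, and their sums were 5096, 18892 and 9407 in stimulated and 5401, 13318 and 9107 in control replicates. None of the 20 passed limma, and none had an unadjusted p under 0.05. With the replicate block, Aurka, a mitotic kinase gene, was called higher and Cdc25b, a phosphatase gene of mitotic entry, lower (adjusted p = 0.00666 and 0.0269).

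None of the FoxN and FoxJ members passed without the block when all 6 libraries were fitted. Foxn3, a checkpoint repressor, was at 1800, 2332 and 2267 in stimulated and 1452, 1622 and 1744 in control replicates (0.40 ± 0.13, limma adjusted p = 0.0832, and 0.0079 with the replicate block). Foxn2 was at 780, 1211 and 1089 in stimulated and 617, 775 and 673 in control replicates (0.56 ± 0.18, limma adjusted p = 0.0882, and 0.00673 with the replicate block). Neither gene overlapped between groups, and without stimulated replicate 1, the lowest stimulated library of both, each passed without the block (adjusted p = 0.037 for Foxn3 and 0.0263 for Foxn2). Foxj3 was at 1473, 1526 and 1690 in stimulated and 1317, 1271 and 1445 in control replicates (0.22 ± 0.09, limma adjusted p = 0.185). Foxj2 was at 868, 1016 and 936 in stimulated and 921, 992 and 951 in control replicates, with overlap (-0.02 ± 0.09, limma adjusted p = 0.897). Foxn1, of thymic epithelium, and Foxn4, of the retina, were at no more than 8 in any library.

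Several forkhead genes were set apart by replicate number in both groups. In Foxl1 and Foxc2, replicate 2 was below 0.5 times both other replicates in both groups, a pattern met by 0.796% of the 13185 genes whose mean reached 50. For Foxl1, replicate 2 had 0.244 times the mean of the other replicates in stimulated and 0.241 times in control cells, and for Foxc2 0.392 and 0.344 times. No member had replicate 2 over 2 times both others in both groups, against 1.85% of these genes.

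**Figure D4:**
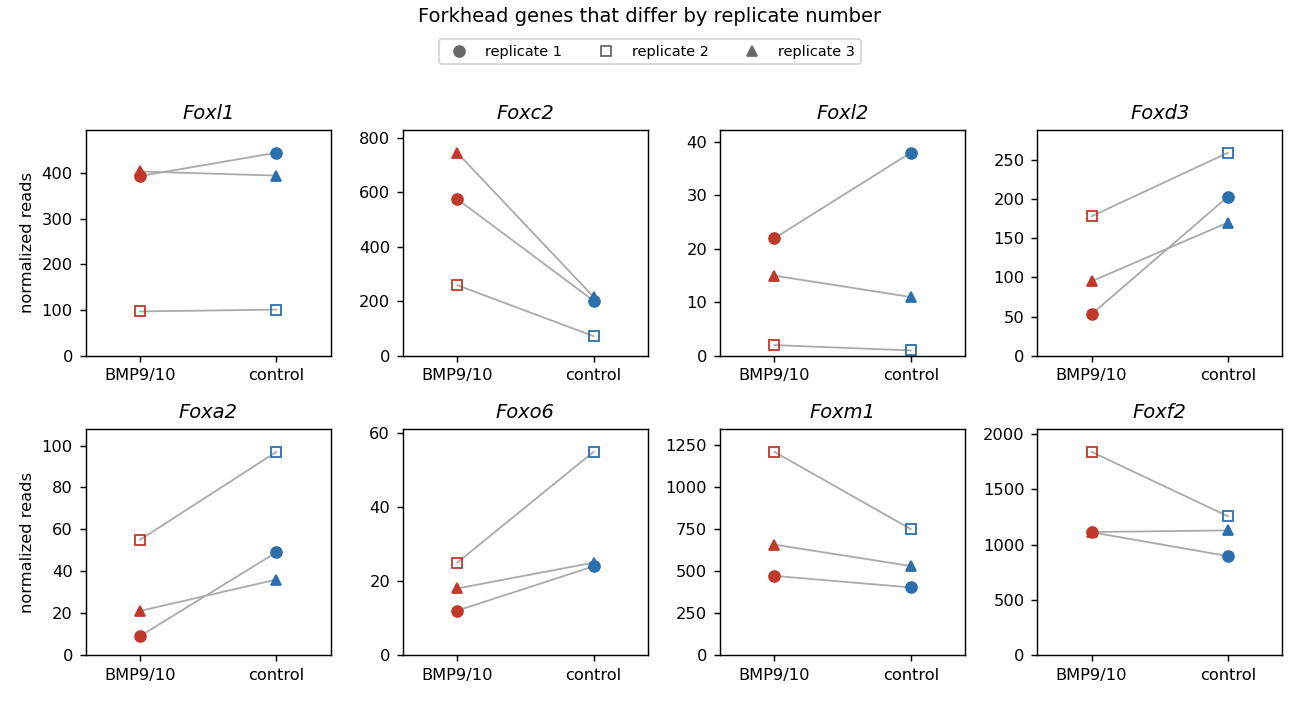
Normalized reads of 8 forkhead genes in each library, stimulated on the left and control on the right, with lines joining libraries of the same number. Replicate 2 (open squares) is lowest in both groups for Foxl1, Foxc2 and Foxl2 and highest in both for Foxd3, Foxa2, Foxo6, Foxm1 and Foxf2. The axes are linear, so the lines of Foxc2 differ in slope, while its differences in the 3 pairs are 1.5, 1.83 and 1.78 on the log2 scale.

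Foxd3, a gene of the neural crest, was at 53, 178 and 95 in stimulated and 203, 259 and 170 in control replicates. The groups overlapped because stimulated replicate 2 was high (-1.1 ± 0.42, limma adjusted p = 0.139), and it passed with the replicate block (adjusted p = 0.025) or without stimulated replicate 2 (-1.53, adjusted p = 0.0376). Foxa2 and Foxa1, factors of the airway and gut epithelium, were low. Foxa2 was at 9, 55 and 21 in stimulated and 49, 97 and 36 in control replicates (-1.29 ± 0.66, limma adjusted p = 0.251, and 0.0418 with the replicate block). Foxa1 was at 9, 32 and 41 in stimulated and 32, 92 and 35 in control replicates (-1 ± 0.64, limma adjusted p = 0.361). The 8 epithelial markers summed to 3248, 36304 and 17701 in stimulated and 7984, 35276 and 9057 in control replicates, a sum highest in replicate 2 of both groups (6 of the 8 markers were). In both libraries numbered 2 and in stimulated replicate 3 most of it was Sftpc, a surfactant gene (1114, 29469 and 12248 in stimulated and 826, 19538 and 4401 in control replicates, a log2 change of 0.83). The other 7 markers had changes of -0.61 to -1.62, of the same sign as those of Foxa1 and Foxa2. None of the 8 passed limma without the block. With it Sftpc was higher (adjusted p = 0.0196) and Krt18 lower (adjusted p = 0.0275), and the markers' part in the FoxA and Foxd3 values was not tested. Foxi2 was listed at 0, 5 and 6 in stimulated replicates and at 0 in all control ones.

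Hedgehog signals are known to set Foxf1, Foxf2 and Foxl1 in mesenchyme, and of 14 genes of that pathway 2 rose and 4 fell (limma, against 8.61% and 4.75% of all genes). Among genes with a mean of at least 50, 20% were called in either direction. The median log2 change of the Hedgehog list was -0.44. Boc, a co-receptor gene, was at 1799, 2639 and 1760 in stimulated and 553, 723 and 601 in control replicates, a rise of 1.71 ± 0.18 (limma adjusted p = 0.00257). The other co-receptor genes went the other way: Gas1 was at 571, 413 and 478 in stimulated and 941, 1146 and 1050 in control replicates and fell by 1.11 (SE 0.14), and Cdon fell by 0.99 (SE 0.22). Among the transcription factor genes Gli2 fell by 1.65 (157, 343 and 201 in stimulated against 591, 796 and 711 in control replicates; SE 0.28, limma adjusted p = 0.0127) and Gli3 rose by 0.57 ± 0.13. Ptch1, the receptor gene and itself a target of the pathway, fell by 0.64 (SE 0.16, limma adjusted p = 0.039), while Gli1, another target, was at 32, 94 and 46 in stimulated and 31, 111 and 48 in control replicates (limma adjusted p = 0.941). The ligand genes Shh, Ihh and Dhh stayed at 56 or less in every library. The calls of Boc and Gas1 held in every alternative run, Gli2 was lost without control replicate 3 (0.0591) or stimulated replicate 3 (0.0701), and Gli3 (also with equal library totals, 0.0856), Cdon and Ptch1 were each lost without 4 or 5 single libraries, including control replicates 1 and 3 and stimulated replicate 3 (adjusted p of 0.0547 to 0.143).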

How the data were processed

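RNA was measured by total RNA sequencing of 3 stimulated and 3 control samples, with a stranded library kit, per the labels' protocols. STAR 2.6.1d, Trimmomatic 0.38, DESeq2 1.18.1, featureCounts 1.6.3 and FastQC are listed in the submitters' processing notes, along with mm10 and 2 names of a human build. Whether counting used strand, and from which annotation, is not given in the sources used here. The deposited values are scores, here read counts that the authors scaled by 1 factor per library and rounded: whole numbers are skipped in 4 of the 6 columns. Reads were not recovered, so no count model was used. The planned fallback was limma 3.58.1 in R 4.3.3, with a trend, on log2(value + 1), for 21743 genes with a mean of at least 1, treatment as the single term, and Benjamini-Hochberg adjustment over all of them at 0.05. Changes of low genes are understated on this scale. Identifiers matched GENCODE M21 for 21747 of 21785 genes. Deviations of same-numbered libraries from their group means correlated by 0.747, 0.741 and 0.218 over the 13185 genes whose mean reached 50. All exceed 0.1, and the numbers were treated as pairs in the block fits and the differences within pairs. They were not in the main fit or the permutation test. What a number marks is not in the labels, and control replicate 3 correlated more with stimulated replicate 1 (0.287) than with stimulated replicate 3 (0.218). The fit was tested on simulated data with independent libraries. These lacked the shared deviations of same-numbered libraries, so that test does not cover them. Members and lists were chosen with earlier results of these data known. Members with a mean of at least 50 or called in either fit were given in every library, and of each list the called genes, up to 4 in each direction by p, or else the 1 with the smallest p. Akt1, Aurka, Gli1, the Hedgehog ligands, the genes near members and the paralog pairs were chosen after their values were seen. Results of some genes, 1 forkhead member among them, are in the counts and are not reported here by name.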

Additional observations from a re-analysis of the deposited data

How the results depend on the processing

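Foxs1, Foxp4, Foxp1, Foxk2 and Foxo3 kept their call in all alternatives: other scalings, filters and pseudocounts, the replicate block and leaving out each library or both libraries numbered 2. With the replicate block 5837 genes were called (6958 with equal library totals as well), against 2905; leaving out 1 library gave 916 to 2341. Higher calls made up 33.4% of all calls with equal totals (median change of all genes -0.20) and 51.2% with upper-quartile factors (-0.11), against 64.5% (-0.03). Forkhead genes called higher numbered 12 with the block, 9 with the block and equal totals and 4 to 9 without 1 library. Those called lower numbered 6, 7 and 1 to 2, and 3 with equal totals and 2 with upper-quartile factors, TMM factors or a filter at a mean of 10. FoxO targets called higher numbered 4 with the block and 0 with equal totals (0 to 2 without 1 library, 1 without both libraries numbered 2), and those called lower 13 with the block, 15 with the block and equal totals and 12 with equal totals (1 to 7 without 1 library). FoxO regulators called higher numbered 3 with equal totals, 4 with upper-quartile factors, 4 without both libraries numbered 2 and 0 to 7 without 1 library; Akt2 was not called with a pseudocount of 0.1 or without both libraries numbered 2, which left 0 lower, as did leaving out any 1 library. FoxM1 targets had 1 call in each direction with the block, with or without equal totals. Hedgehog genes called higher numbered 1 with equal totals, 1 without both libraries numbered 2 and 1 to 3 without 1 library, and those called lower 1 to 3 without 1 library. Signs turned for uncalled genes: Foxj2 (0.03 without stimulated replicate 1; -0.08 to 0.03 over single libraries left out), Foxk1 (-0.06 with equal totals, with or without the block), Foxl1 (0.32 and 0.23 without control replicates 1 and 3, 0.61 without stimulated replicate 2; -0.75 to 0.61) and Foxl2 (-0.06 with equal totals, with or without the block, -0.04 with a pseudocount of 5, -1.07 without control replicate 2, -0.50 and -0.24 without stimulated replicates 1 and 3, -1.07 to 1.08 over single libraries, and -0.17 without both libraries numbered 2). The causes of these differences were not tested.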
